A study of Mus musculus with 11 samples.

Results

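The cortex of wild-type mice was compared with and without a cryolesion, a focal cold injury of the brain surface. The groups were taken from the sample titles, which gave 6 intact wild-type mice (WT) and 5 wild-type mice with a cryolesion (WTC), 11 of the 22 mice of the series. All 11 were of the strain C57/Bl6J, were 5 to 7 months old and were labelled wild type, and RNA came from the cortex of the right hemisphere. The WTC mice had received a dry ice pellet on the brain surface for 30 s and were sampled 3 days afterwards; the labels call the WT mice normal controls and name no sham operation. The other mice carried GFA2-tTa/TetO-VP16-CREB, in which an astrocyte promoter drives an active form of the transcription factor CREB, with (TC, n = 6) or without a lesion (T, n = 5), and entered here only because they shared arrays and the estimate of spread with the wild-type mice.

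RNA was hybridised to 11 Agilent 2-colour arrays, each with 1 mouse in Cy5 and another in Cy3. Arrays A and B each paired a WTC with a WT mouse. Arrays C to F held a WT mouse beside a transgenic one, and arrays K to M a WTC mouse beside a TC mouse. A mouse is named here by its group and array, so the intact mice are WT A to WT F and the lesioned mice are WTC A, B, K, L and M. Every mouse appeared on 1 of the arrays used here, although the series' design text speaks of 4 hybridisations per sample, and p-values therefore rest on the spread among animals. All 6 WT mice were on slide 1 with WTC A and B, while WTC K, L and M were on slide 2. Y-linked genes were near background in WT E, WT F and WTC M and high in the other 8 mice, so both groups held mice of either sex.

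A cold injury kills the tissue under the pellet and opens its vessels. In the days that follow, astrocytes around the core enlarge and raise their filament proteins, a change called reactive astrogliosis. Microglia, the resident phagocytes, turn to clearing debris, monocytes and neutrophils enter from the blood, and several of these cell types divide. Neurons of the core are lost. In RNA of whole tissue, fewer cells of a type and less RNA per cell cannot be told apart, and nor can more cells and more RNA per cell.

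Between 55.3% and 64.3% of probes were well above background in a mouse, and no spot was saturated (0 flags). After the filter on dim probes 25997 features remained, 16032 of them with a gene symbol. Markers of cortex were present in every mouse: the neuronal genes Snap25 and Rbfox3, the astrocyte gene Aldh1l1, the oligodendrocyte gene Mog and the microglial genes Cx3cr1 and Tmem119 were well above background in all 11. Genes of striatum and choroid plexus, which adjoin cortex in a dissection, also gave signal and varied between mice of the same group, as described with the other regions.

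The same question was put to the arrays in both ways that the design allows. In the first, the ratio of the mice on each array was fitted (limma, 11 arrays, 7 residual degrees of freedom), which cancels whatever the channels of an array share. It called 6 features higher in WTC (0.0231% of 25997) and 0 lower (0%), at a Benjamini-Hochberg adjusted p under 0.05. Without that adjustment 3285 were higher and 1797 lower at p under 0.05. In the second, the log2 level of each of the 22 channels was fitted (limma for separate channels, 17 residual degrees of freedom), which also compares mice of different arrays. It called 3712 features higher (14.3%) and 3181 lower (12.2%), and all 6 of the first fit were among the 3712. Below, "rose" and "fell" mean called in this channel fit, a difference is WTC minus WT on the log2 scale with its standard error (SE), which also draws on the other mouse of each array and so is not the plain difference of group means, and the median difference over all features was -0.03.

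The counts were read against the slides and against single mice. With a slide term in the channel fit, 2400 features were higher (9.23%) and 1036 lower (3.99%), of which 2327 and 1021 were also called without it. The slide-term count is given after each gene list for that reason. Without WT B the counts fell to 2431 higher and 2030 lower, without WT E 2113 were lower, and without WTC M 1947 were lower. The split between the directions depended on the scaling of channels: 53.9% of the calls were higher with the scaling used, 41.1% after quantile normalization and 68.8% with no normalization between arrays. The ratio fit moved far more, from 0 higher features without array B, C, J or L, 1 without array A, E or M, 2 without array F and 10 without array D to 1235 higher and 198 lower without array I and 1199 higher and 359 lower without array K. Arrays I, J and K are those whose channel labels contradict their titles, and without all 3 the ratio fit called 1342 higher and 399 lower.

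The increases were larger than the decreases. In the channel fit 967 called features differed by more than 2-fold upwards and 84 downwards, and 205 by more than 4-fold upwards against 0 downwards. In 2402 features (9.24%) all 5 WTC mice lay above all 6 WT mice, and in 1924 (7.4%) below them; 2275 and 1563 of these were also called in that direction.

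**Figure D1:**
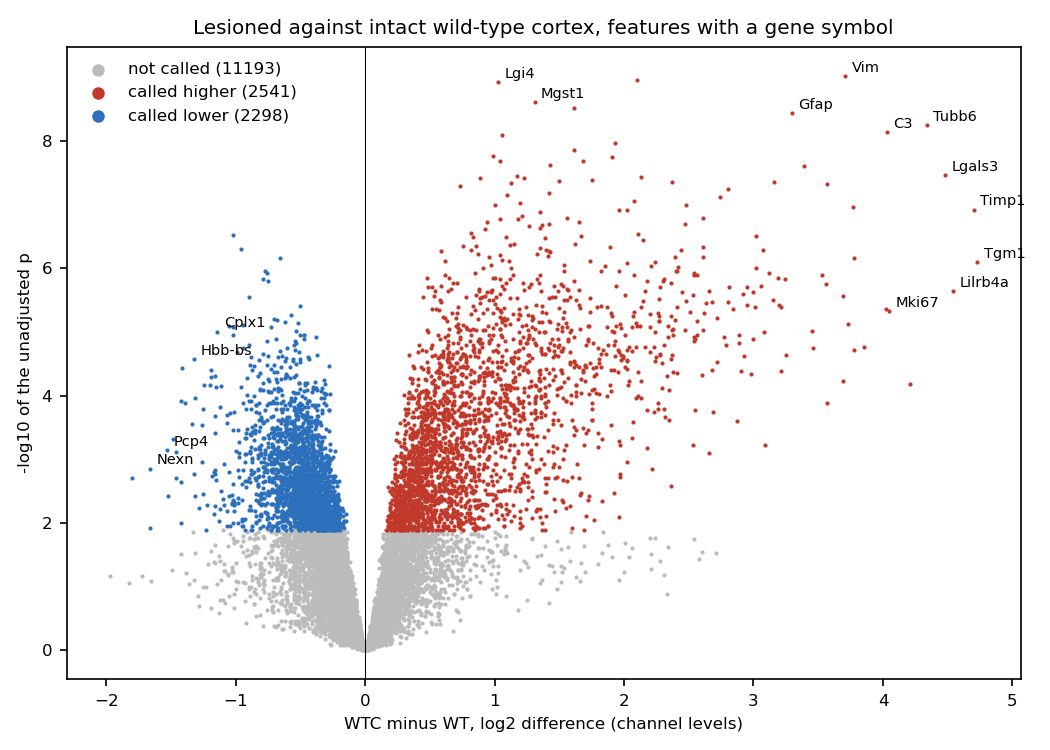
The log2 difference between WTC and WT mice in the channel fit (horizontal) against the -log10 of its unadjusted p (vertical), 1 point per feature with a gene symbol. Called features reach beyond 4 log2 units to the right (Tgm1, Timp1, Lilrb4a) and stay above -2 on the left (Nexn, Pcp4).

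The genes called by both fits all rose. For each gene, levels are log2 channel values, given for the lesioned mice in the order A, B, K, L and M and for the intact mice as the lowest, the median and the highest. Timp1, a secreted inhibitor of matrix metalloproteinases, stood at 10.76, 12.53, 12.53, 12.72 and 13.56 in lesioned and at 6.23, 6.96 and 8.94 in intact mice. The groups were more than a log2 unit apart, and WTC A was the lowest lesioned mouse. Its difference was 4.70 ± 0.58 in the channel fit (adjusted p = 6.8e-05) and 3.61 ± 0.42 in the ratio fit (adjusted p = 0.046).

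Mgst1, a membrane-bound glutathione transferase, stood at 12.06, 12.03, 12.11, 12.09 and 11.96 in lesioned and 10.41, 10.75 and 11.03 in intact mice. The 5 lesioned mice lay within a narrow band, tighter than the intact ones. Its channel difference was 1.31 ± 0.13 (adjusted p = 1.4e-05) and its ratio difference 1.34 ± 0.16 (adjusted p = 0.046). Lgi4, a protein secreted by glia, stood at 13.16, 13.34, 13.39, 13.37 and 13.59 against 12.05, 12.34 and 12.57, with no overlap. Its channel difference was 1.03 ± 0.10 (adjusted p = 1e-05) and its ratio difference 1.05 ± 0.09 (adjusted p = 0.029). Lgi4 was the gene called most often in the ratio fit, in 17 of 26 other settings.

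Tmem47, a membrane protein of cell junctions, stood at 9.86, 10, 9.45, 9.25 and 9.14 against 8.67, 8.74 and 8.83. Lesioned mice A and B, both on slide 1, were the highest, and all 5 lay above the intact mice. The channel difference of Tmem47 was 0.88 ± 0.13 (adjusted p = 3e-04). Unc13d, which acts in the release of granules from blood cells, stood at 8.06, 8.05, 8.22, 8.11 and 8.57 against 6.95, 7.24 and 7.50. Its channel difference was 0.99 ± 0.11 (adjusted p = 3.1e-05). Traf1, an adaptor of tumour necrosis factor receptors, stood at 9.06, 8.65, 9.61, 8.80 and 9.58 against 7.19, 7.39 and 7.98, without overlap. Its channel difference was 1.61 ± 0.17 (adjusted p = 2.9e-05). In the ratio fit each of these 3 had an adjusted p of 0.046, and they were called in 11, 10 and 11 of 26 other settings of that fit, against 9 for Timp1 and for Mgst1.

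**Figure D2:**
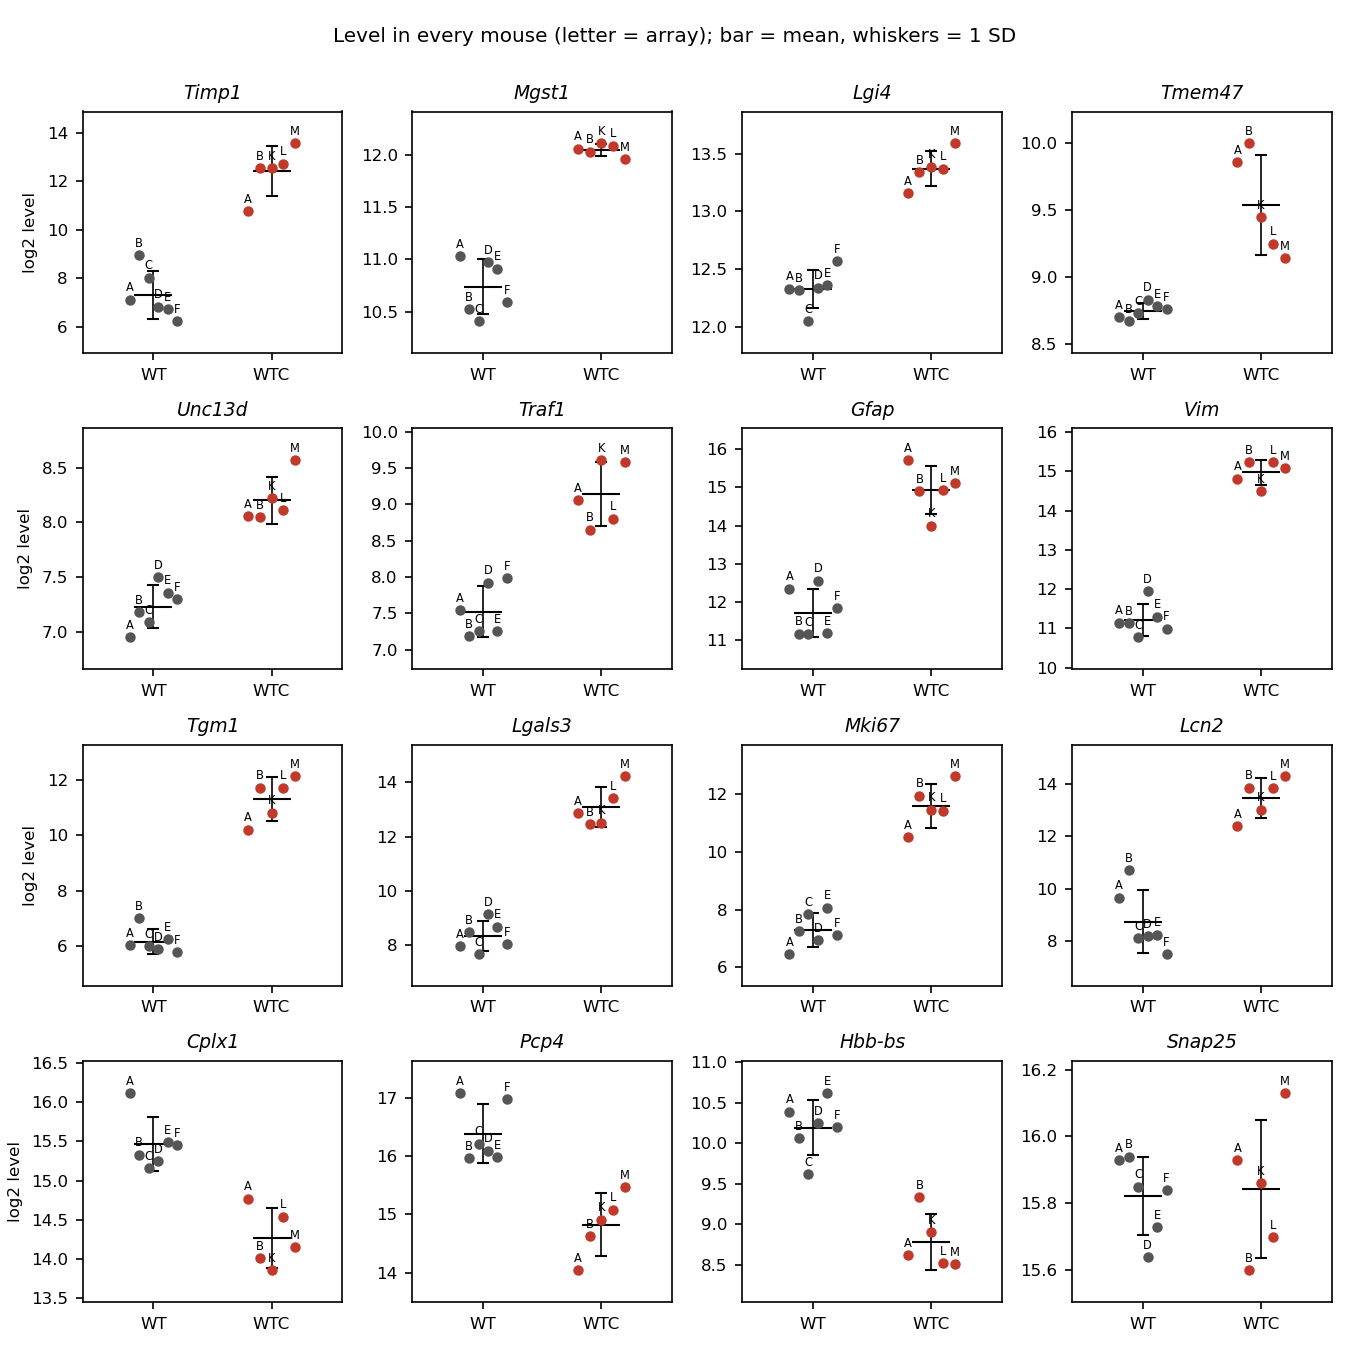
Log2 level (vertical) of 16 genes in each of 6 WT (grey) and 5 WTC mice (red), lettered by array; the bar is the mean and the whiskers 1 SD. Timp1, Mgst1, Lgi4, Tmem47, Unc13d and Traf1 are the genes called by both fits, and their groups are apart, as are those of Cplx1, Pcp4 and Hbb-bs in the other direction; those of Snap25 overlap.

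The groups did not overlap in the following genes, which the ratio fit did not call. Tgm1, a transglutaminase that cross-links proteins, stood at 10.20, 11.71, 10.82, 11.72 and 12.12 in lesioned and 5.78, 6.02 and 7.02 in intact mice, where it was well above background in 1 of 6. Its difference was 4.73 ± 0.66 (adjusted p = 0.00019), whose size rests on intact levels near background. Lilrb4a, an inhibitory receptor of myeloid cells, stood at 10.81, 10.96, 10.7, 12.26 and 12.30 against 6.11, 6.44 and 7.09. Lesioned mice L and M were the highest, and the difference was 4.54 ± 0.69 (23.3-fold, adjusted p = 0.00031); the other probe of Lilrb4a gave 2.29. Lgals3, the galectin of activated phagocytes, stood at 12.85, 12.45, 12.51, 13.42 and 14.21 against 7.68, 8.26 and 9.15. Every lesioned mouse was more than 3 log2 units above the highest intact one, and the difference was 4.48 ± 0.51 (22.4-fold, adjusted p = 3.9e-05).

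Tubb6, a beta-tubulin that rises in injured nerve cells, stood at 11.45, 12.84, 12.58, 12.82 and 13.28 against 7.64, 8.02 and 8.37. WTC A was lowest among the lesioned mice, and the difference was 4.34 ± 0.44 (20.3-fold, adjusted p = 1.7e-05). Lcn2, a secreted lipocalin of reactive astrocytes and neutrophils that binds bacterial siderophores, stood at 12.39, 13.86, 13.02, 13.84 and 14.29 against 7.52, 8.22 and 10.72. The intact mice spread over more than 3 log2 units with WT B highest, below every lesioned mouse, and the difference was 4.21 ± 0.83 (18.5-fold, adjusted p = 0.0018). Cd5l, a macrophage protein, stood at 8.73, 10.13, 10.76, 11.32 and 10.06 in lesioned mice and was not well above background in any intact mouse. Its fitted difference was 3.85 (adjusted p = 0.00083). The plain mean of the lesioned mice was 17.6-fold above intact levels raised to the lowest signal that counts as well above background. That fold does not come from the fit. Several probes of 1 gene did not always match in size: they ran from 2.49 to 3.81 for Gfap, 2.99 to 4.03 for C3, 2.18 to 4.01 for Hmox1, 0.57 to 1.42 for Csf1r, 0.29 to 1.37 for Stat3 and -0.89 to -0.17 for Tfrc. C3, Hmox1, Mki67, Ccl2 and Lyz1 complete the genes with the largest increases and are described with their groups.

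Reactive astrocyte genes rose almost as a body. Of 26 measured genes, 22 rose and 0 fell (20 and 0 with the slide term, 24 and 0 at an unadjusted p under 0.05), with a median difference of 2.17. Gfap, the intermediate filament that defines reactive astrocytes, stood at 15.72, 14.91, 14.00, 14.92 and 15.12 in lesioned and 11.15, 11.51 and 12.56 in intact mice. WTC A was the highest and WTC K the lowest of the lesioned mice, and none overlapped with the intact ones. Its difference was 3.30 ± 0.33 (9.87-fold, adjusted p = 1.4e-05).

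Vim, the filament protein that joins Gfap in reactive astrocytes, stood at 14.81, 15.24, 14.50, 15.23 and 15.09 against 10.77, 11.15 and 11.95, a difference of 3.71 ± 0.34 (13.1-fold, adjusted p = 1e-05). Serpina3n, a secreted protease inhibitor, stood at 12.49, 11.98, 11.80, 12.71 and 12.20 against 8.08, 8.34 and 9.04, a difference of 3.57 ± 0.42 (adjusted p = 4.1e-05). For both, the lesioned mice kept within about a log2 unit of each other and far above the intact ones. Cd109, a surface protein that binds transforming growth factor beta, differed by 2.13 ± 0.24 (adjusted p = 3.9e-05). The measured genes of the list that did not pass were Hspb1, Fkbp5, Synm and Sphk1, with differences from -0.20 to 0.59.

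Genes of astrocyte transport and coupling differed among themselves. Of 26 measured, 7 rose and 0 fell (9 and 0 with the slide term, 10 and 2 at an unadjusted p under 0.05), with a median of 0.32. Slc14a1, a urea transporter, stood at 11.16, 10.94, 10.92, 10.98 and 10.90 against 8.42, 8.81 and 9.41. That is a tight band above the intact mice, and the difference was 2.10 ± 0.19 (adjusted p = 1e-05). Aqp4, the water channel of astrocyte endfeet, stood at 12.68, 12.67, 12.55, 11.92 and 13.28 against 10.50, 10.84 and 11.86. WTC L was close to the highest intact mouse, WT A, and the difference was 1.62 ± 0.22 (adjusted p = 0.00014).

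Sox9, a transcription factor of astrocytes, differed by 0.73 ± 0.08 (adjusted p = 4.1e-05) and Mlc1, a membrane protein of endfeet, by 0.62 ± 0.11 (adjusted p = 0.00068). Slc1a2, the main glutamate transporter of astrocytes, stood at 13.39, 13.76, 13.67, 13.25 and 13.28 in lesioned and 12.83, 13.13 and 13.44 in intact mice. The groups overlapped, its difference was 0.33 ± 0.14 (adjusted p = 0.083), and its probes disagreed, at -0.07 to 0.60.

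Microglial genes rose without a fall among them. Of 22 measured, 18 rose and 0 fell (18 and 0 with the slide term, 20 and 0 at an unadjusted p under 0.05), with a median of 1.43, and in 19 all lesioned mice lay above all intact ones. Aif1, the actin-binding protein IBA1, stood at 12.72, 14.07, 13.78, 13.98 and 14.59 against 11.11, 11.78 and 11.95, a difference of 2.01 ± 0.38 (adjusted p = 0.0012). Csf1r, the receptor for the growth factor of microglia and macrophages, stood at 15.12, 15.94, 15.26, 16.15 and 15.62 against 13.78, 14.12 and 14.38, a difference of 1.42 ± 0.23 (adjusted p = 0.00054). In both genes WTC A was the lowest lesioned mouse.

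Tyrobp, the signalling partner of the receptor Trem2, differed by 1.79 ± 0.28 (adjusted p = 4e-04) and Laptm5, a lysosomal membrane protein, by 2.12 ± 0.35 (adjusted p = 0.00058). P2ry12, the purine receptor that marks resting microglia, stood at 10.57, 10.83, 10.44, 10.43 and 9.86 in lesioned and 9.60, 10.15 and 10.46 in intact mice. WTC K, L and M lay within the intact range, and the difference was 0.42 ± 0.20 (adjusted p = 0.13).

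Genes of phagocytic lysosomes and lipid handling rose in 23 of 26 measured members and fell in 0 (21 and 0 with the slide term, 25 and 0 at an unadjusted p under 0.05), with a median of 1.51. Gpnmb, a glycoprotein of lipid-laden phagocytes, stood at 11.50, 9.74, 9.45, 11.54 and 12.24 against 6.68, 6.99 and 7.08. Lesioned mice B and K lay more than a log2 unit below A, L and M, while the intact mice were within 0.5 of each other. Its difference was 3.77 ± 0.46 (13.7-fold, adjusted p = 6.4e-05). Anxa2, a calcium-dependent membrane binder, differed by 2.47 ± 0.32 (adjusted p = 9.1e-05) and Lamp2, a lysosomal membrane protein, by 1.12 ± 0.15 (adjusted p = 0.00015). Lgals3 belongs to this list as well.

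Monocyte and macrophage genes rose in 25 of 28 measured members and fell in 0 (22 and 0 with the slide term, 27 and 0 at an unadjusted p under 0.05), with a median of 2.19. Lyz2, the lysozyme of myeloid cells, stood at 9.82, 9.40, 9.37, 10.91 and 10.25 against 6.68, 7.05 and 7.49, a difference of 2.72 ± 0.44 (adjusted p = 0.00051). Lyz1, its neighbour and near copy, stood at 12.08, 11.73, 11.86, 13.54 and 13.35 against 8.17, 8.38 and 9.06, a difference of 3.78 ± 0.53 (13.7-fold, adjusted p = 0.00018). In both the lesioned mice L and M were the highest; cross-hybridisation between the near-identical copies was not tested. S100a6 and S100a11, calcium-binding proteins, differed by 3.02 ± 0.40 (adjusted p = 0.00012) and 2.37 ± 0.27 (adjusted p = 4e-05). Ccr2, the receptor that draws monocytes from the blood, stood at 6.71, 6.73, 6.86, 7.50 and 7.93 in lesioned mice, well above background in all 5, and in 1 of 6 intact mice. Its difference was 1.07 ± 0.25 (adjusted p = 0.0053).

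Neutrophil genes split. Of 14 measured, 6 rose and 1 fell (5 and 0 with the slide term), with a median of 0.19, and the call of the falling gene was lost without WT A, WT B, WT C, WT E, WTC B, WTC K or WTC M, which left 0. S100a9, a subunit of calprotectin that makes up much of the protein of neutrophils, stood at 10.62, 9.98, 11.59, 11.72 and 10.62 against 6.59, 7.60 and 7.73, a difference of 3.25 ± 0.59 (9.49-fold, adjusted p = 0.00096). Its partner S100a8 stood at 8.84, 8.14, 9.43, 9.38 and 8.29 against 6.04, 6.39 and 6.40, a difference of 2.36 ± 0.43 (adjusted p = 0.001). Both were highest in lesioned mice K and L. Il1b, the cytokine interleukin-1 beta, differed by 0.95 ± 0.22 (adjusted p = 0.0056). The granule enzymes Elane and Mpo, which are made in bone marrow, gave differences of 0.16 and 0.08 and did not pass.

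Of 15 measured lymphocyte genes 3 rose, against 14.3% of all features, and 0 fell (1 and 0 with the slide term, 4 and 0 at an unadjusted p under 0.05), with a median of 0.11, and 1 rose without WTC M. Cd79b, part of the B cell receptor, stood at 7.76, 8.28, 7.91, 8.79 and 8.92 against 6.76, 6.98 and 7.13, a difference of 1.28 ± 0.25 (adjusted p = 0.0016). Ccl5, a chemokine of activated T cells, stood at 8.18, 9.81, 10.32, 9.84 and 11.97 in lesioned and 7.26, 7.64 and 9.49 in intact mice. The groups overlapped, its difference was 1.83 ± 0.57 (adjusted p = 0.026), and the call was lost without WT B, WTC B or WTC M, with adjusted p-values up to 0.084, with the slide term (adjusted p = 0.12), on slide 1 alone and with no normalization between arrays. Cd3e, part of the T cell receptor, differed by 0.44 ± 0.17 (adjusted p = 0.054) and passed without WT A, WTC A or WTC L.

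**Figure D3:**
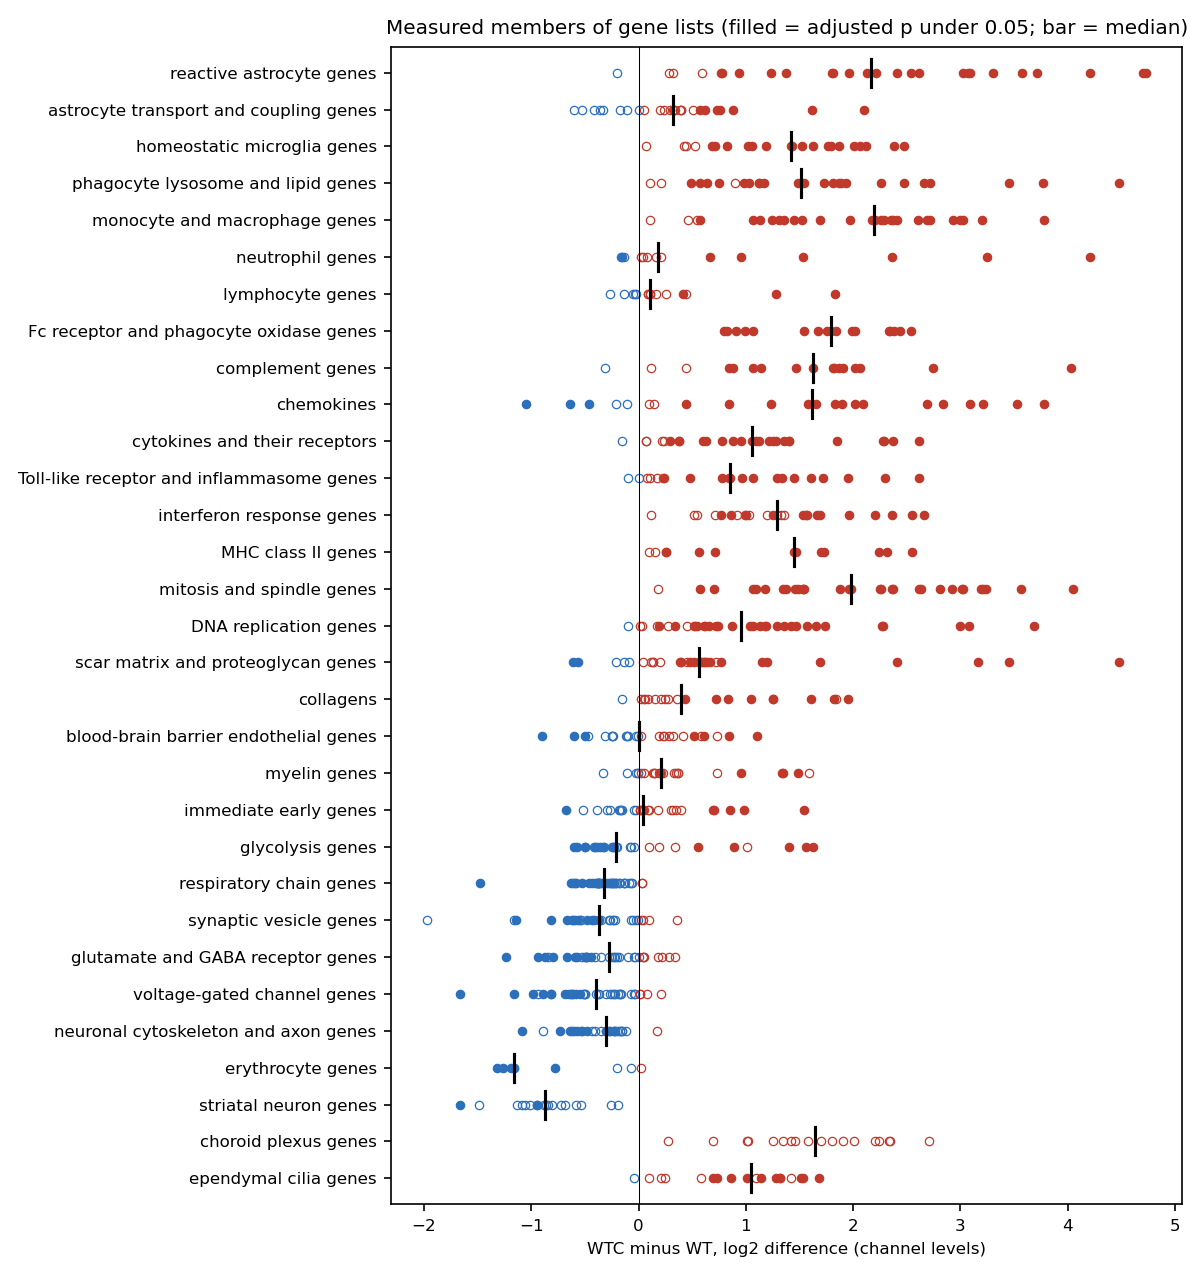
The log2 difference between WTC and WT mice in the channel fit (horizontal) of each measured member of 31 gene lists (rows); filled points have an adjusted p under 0.05 and the bar is the list's median. The lists of reactive astrocytes, monocytes and macrophages and mitosis have medians near 2, and that of erythrocyte genes lies at -1.16.

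Chemokines, the attractants of blood cells, rose in 15 of 22 measured members and fell in 3 (12 and 2 with the slide term), with a median of 1.61. Ccl2, which attracts monocytes through Ccr2, stood at 9.82, 10.71, 10.06, 11.92 and 12.26 against 6.39, 6.71 and 7.89, a difference of 3.78 ± 0.67 (13.8-fold, adjusted p = 0.00089). Ccl12, a close relative that acts on the same receptor, stood at 10.23, 11.07, 11.22, 12.13 and 12.34 against 6.97, 7.31 and 8.54, a difference of 3.53 ± 0.51 (11.6-fold, adjusted p = 0.00025). Lesioned mice L and M were the highest in both. Ccl4 and Ccl3, made by activated microglia, differed by 2.84 ± 0.45 (adjusted p = 0.00042) and 2.09 ± 0.35 (adjusted p = 0.00055), and Ccl9 by 1.90 ± 0.30 (adjusted p = 0.00046). The 3 of 22 that fell, against 12.2% of all features, were Ccl17 at -1.05, Cxcl12 at -0.64 and Cx3cl1 at -0.46. Cxcl12 is the attractant of vessels and meninges, and neurons present Cx3cl1 to microglia. The count of falls was 2 without any of WT B to WT F or WTC B, K, L or M.

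Cytokines and their receptors rose in 21 of 27 measured members and fell in 0 (20 and 0 with the slide term, 21 and 0 at an unadjusted p under 0.05), with a median of 1.06. Osmr, the receptor of oncostatin M, stood at 10.21, 10.56, 10.30, 10.69 and 11.24 against 7.60, 7.88 and 8.19, a difference of 2.61 ± 0.35 (adjusted p = 0.00015). Tnfrsf1a, a receptor of tumour necrosis factor, stood at 10.71, 11.49, 11.21, 11.74 and 11.98 against 9.21, 9.53 and 9.67, a difference of 1.85 ± 0.26 (adjusted p = 0.00021). Csf1, the ligand of Csf1r, stood at 11.38, 11.74, 11.73, 11.84 and 12.36 against 10.08, 10.34 and 10.43, a difference of 1.40 ± 0.19 (adjusted p = 0.00016). In all 3 WTC A was the lowest lesioned mouse and WTC M the highest. Socs3, the feedback inhibitor that STAT3 induces, differed by 2.28 ± 0.41 (adjusted p = 0.00094). The ligands Osm, Il6, Il11 and Lif, picked after their values were seen, gave differences from 0.07 to 0.24 and did not pass.

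Complement genes rose in 14 of 17 measured members and fell in 0 (10 and 0 with the slide term, 15 and 0 at an unadjusted p under 0.05), with a median of 1.63. C3, the central component, stood at 12.45, 12.50, 12.48, 12.34 and 13.43 against 8, 8.30 and 9.46. Lesioned mice A, B, K and L agreed within 0.2 and M was highest, and the difference was 4.03 ± 0.42 (16.3-fold, adjusted p = 1.9e-05). C4b stood at 15.08, 15.29, 14.95, 15.07 and 15.83 against 11.90, 12.31 and 13.53, a difference of 2.74 ± 0.33 (adjusted p = 5.2e-05). Serping1, which inhibits the first component, stood at 11.18, 11.05, 10.97, 11 and 11.46 against 8.84, 9.07 and 9.56, a difference of 1.91 ± 0.21 (adjusted p = 3.1e-05). Itgb2, the beta chain of complement receptor 3, differed by 1.82 ± 0.29 (adjusted p = 4e-04).

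Genes of Fc receptors and the phagocyte oxidase rose in 17 of 17 measured members (15 with the slide term), with a median of 1.79, and in all 17 the groups did not overlap. Rac2, the small GTPase that assembles the oxidase, stood at 9.75, 10.61, 10.43, 10.84 and 10.93 against 7.56, 7.80 and 8.04, a difference of 2.54 ± 0.37 (adjusted p = 0.00025). Fcgr2b, the inhibitory Fc receptor, stood at 9.17, 9.78, 9.81, 10.47 and 10.57 against 7.11, 7.30 and 7.81, a difference of 2.44 ± 0.33 (adjusted p = 0.00016). Unc13d is also a member.

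Toll-like receptor and inflammasome genes rose in 15 of 21 measured members and fell in 0 (13 and 0 with the slide term, 15 and 0 at an unadjusted p under 0.05), with a median of 0.85. Tlr2, which senses bacterial lipopeptides, stood at 9.44, 10.41, 9.83, 11.02 and 10.99 against 7.09, 7.45 and 8.24, a difference of 2.61 ± 0.36 (adjusted p = 0.00018). Pycard, the adaptor of inflammasomes, stood at 11.21, 11.95, 11.89, 12.31 and 12.46 against 9.17, 9.51 and 9.76, a difference of 2.30 ± 0.34 (adjusted p = 0.00026). Tlr13 differed by 1.95 ± 0.35 (adjusted p = 9e-04). The groups were apart for each of these.

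Genes of the NF-kB pathway and of adaptors of tumour necrosis factor receptors rose in 10 of 19 measured members and fell in 0 (8 and 0 with the slide term, 12 and 0 at an unadjusted p under 0.05), with a median of 0.33. Bcl3, a nuclear partner of NF-kB subunits, stood at 10.11, 10.95, 10.83, 11.68 and 12.15 against 7.16, 7.69 and 7.86, more than 2 log2 units above the intact mice throughout. Its difference was 3.39 ± 0.38 (10.5-fold, adjusted p = 3.4e-05). Nfkb2 and Relb, subunits of the alternative pathway, differed by 1.12 ± 0.16 (adjusted p = 0.00026) and 0.65 ± 0.12 (adjusted p = 0.0012), and Traf1 is the gene of the list that both fits called.

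Interferon response genes depended on single mice. Of 25 measured, 14 rose and 0 fell, all 25 differences were positive and the median was 1.29 (19 and 0 at an unadjusted p under 0.05), but 4 rose with the slide term and 5 with no normalization between arrays. The count was 4 without WT B, 8 without WTC L, 9 without WTC B or WTC M and 22 without WTC A. The mean level of the list ran from 8.40 to 9.50 in intact mice and was 9.04 in WTC A, inside that range, and 11.63 in WTC M. Ifitm3, a membrane protein that blocks virus entry, stood at 11.81, 12.13, 12.53, 12.79 and 13.43 against 9.73, 10.09 and 10.88, a difference of 2.20 ± 0.39 (adjusted p = 0.00092), with no overlap. Bst2, which tethers viruses, stood at 10.95, 12.39, 12.57, 12.81 and 14.12 against 9.28, 9.38 and 10.95, a difference of 2.55 ± 0.55 (adjusted p = 0.0032), and WTC A and the highest intact mouse, WT D, were level.

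Adhesion and integrin genes, by which blood cells cross vessel walls, rose in 8 of 18 measured members and fell in 0 (6 and 0 with the slide term, 11 and 0 at an unadjusted p under 0.05), with a median of 0.47. Annexins, galectins and S100 proteins, to which Lgals3, Anxa2, S100a6 and S100a11 belong, rose in 18 of 27 and fell in 0 (18 and 0 with the slide term, 20 and 1 at an unadjusted p under 0.05; 1 fell without WTC A), with a median of 1.24.

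Genes of both arms of antigen presentation rose, and the class I count depended on single mice. Of 20 measured genes of class I and peptide loading, 15 rose and 0 fell (8 and 0 with the slide term, 16 and 0 at an unadjusted p under 0.05), with a median of 0.82. The count was 10 without WT B, 11 without WTC L, 18 without WTC A and 9 with no normalization between arrays. The mean level of this list in WTC A, 11.27, lay inside the intact range of 10.78 to 11.34. Tap2, which moves peptides into the endoplasmic reticulum, differed by 1.14 ± 0.22 (adjusted p = 0.0016). Of 13 measured class II genes 10 rose and 0 fell (9 and 0 with the slide term, 10 and 0 at an unadjusted p under 0.05), with a median of 1.45. Cd74, the invariant chain of class II, stood at 10.42, 10.63, 11.34, 11.02 and 12.67 against 7.65, 8.24 and 9.66, a difference of 2.55 ± 0.44 (adjusted p = 0.00073), with WTC M more than a log2 unit above the other lesioned mice. H2-Eb1, a class II beta chain, stood at 10.64, 10.76, 11.44, 11.14 and 12.92 against 8.36, 8.84 and 10.11, a difference of 2.24 ± 0.41 (adjusted p = 0.0011), and M was again the highest.

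Genes of cell division rose nearly without exception. Of 31 measured genes of mitosis and the spindle, 30 rose and 0 fell, 30 also rose with the slide term, and in 30 the groups did not overlap; the median was 1.98. The count of 30 did not depend on any single mouse. Mki67, the nuclear protein used to mark dividing cells, stood at 10.51, 11.95, 11.47, 11.43 and 12.62 against 6.46, 7.19 and 8.07, a difference of 4.05 ± 0.65 (16.5-fold, adjusted p = 0.00045). WTC A was the lowest and WTC M the highest of the lesioned mice. Spc25, a part of the kinetochore, stood at 10.19, 11.13, 11.05, 11.46 and 12.37 against 7.38, 7.76 and 8.27, a difference of 3.19 ± 0.47 (adjusted p = 0.00025). Pbk, a mitotic kinase, stood at 9.26, 9.89, 9.28, 9.81 and 10.57 against 6.21, 6.40 and 6.98, a difference of 3.02 ± 0.43 (adjusted p = 0.00022). Ect2, which places the cleavage furrow, differed by 1.96 ± 0.28 and Nuf2, a partner of Spc25, by 1.35 ± 0.20 (adjusted p = 0.00022 and 0.00024).

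The promoters of 4 mitotic genes are shown, and any part they had in the rise was not tested. They come from RefSeq, build GRCm38.p6, and are the 250 bases before the annotated start, 5′ to 3′ on the gene's strand, with each TTTGAA (the element called CHR) and each CCAAT in capitals on either strand. Mki67 lies at chr7:135716380-135716629 on the minus strand, Cdk1, the kinase that starts mitosis, at chr10:69352913-69353162 (minus), and its cyclins Ccnb1 and Ccnb2 at chr13:100786487-100786736 (minus) and chr9:70421555-70421804 (minus).
Mki67: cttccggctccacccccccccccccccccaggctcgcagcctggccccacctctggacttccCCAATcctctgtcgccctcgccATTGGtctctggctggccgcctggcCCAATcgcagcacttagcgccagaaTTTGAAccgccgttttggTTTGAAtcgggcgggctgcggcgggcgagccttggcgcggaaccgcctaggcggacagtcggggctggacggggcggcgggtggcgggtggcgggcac
Cdk1: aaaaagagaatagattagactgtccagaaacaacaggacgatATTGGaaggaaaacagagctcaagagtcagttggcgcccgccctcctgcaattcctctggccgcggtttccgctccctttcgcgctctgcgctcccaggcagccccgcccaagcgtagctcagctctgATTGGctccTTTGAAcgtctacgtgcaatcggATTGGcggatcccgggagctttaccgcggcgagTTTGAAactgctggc
Ccnb1: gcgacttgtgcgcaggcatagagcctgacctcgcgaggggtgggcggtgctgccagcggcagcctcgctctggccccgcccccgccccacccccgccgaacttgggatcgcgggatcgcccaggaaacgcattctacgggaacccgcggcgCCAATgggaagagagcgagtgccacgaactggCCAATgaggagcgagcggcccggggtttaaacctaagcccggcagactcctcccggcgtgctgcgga
Ccnb2: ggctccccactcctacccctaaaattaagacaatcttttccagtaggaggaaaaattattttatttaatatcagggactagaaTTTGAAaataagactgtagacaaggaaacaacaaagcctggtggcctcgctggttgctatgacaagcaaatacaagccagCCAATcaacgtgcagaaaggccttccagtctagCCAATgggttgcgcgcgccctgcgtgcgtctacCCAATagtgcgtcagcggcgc
On both strands together the Mki67 promoter held 2 TTTGAA and 3 CCAAT, that of Cdk1 2 and 3, that of Ccnb1 0 and 2 and that of Ccnb2 1 and 3. The promoters of Cdc20, with 1 and 2, and of Plk1, with 0 and 1, were read too and are not shown. Cdk1 differed by 2.36 ± 0.35 (adjusted p = 0.00028), Ccnb1 by 2.92 ± 0.45 (adjusted p = 0.00032) and Ccnb2 by 2.81 ± 0.42 (adjusted p = 0.00029). These 3 genes were chosen for their role after their values were seen, and the 3 probes of Ccnb1 ran from 0.87 to 2.93. Of the 31 measured mitosis genes 27 had a promoter in the table; 11 of them (40.7%) held TTTGAA and 21 (77.8%) CCAAT on either strand. Among all 12702 features with a symbol and a promoter the shares were 13.3% and 39.6%, among called increases 15.3% and 40.7%, and among DNA replication genes 13.8% and 58.6%. The letters describe these windows and were not tested as binding sites.

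DNA replication genes rose in 28 of 34 measured members and fell in 0 (26 and 0 with the slide term, 31 and 0 at an unadjusted p under 0.05), with a median of 0.96. Rrm2, the regulated subunit of ribonucleotide reductase, stood at 10.81, 12.69, 11.95, 12.47 and 13.53 against 7.62, 8.36 and 8.97, a difference of 3.69 ± 0.57 (12.9-fold, adjusted p = 0.00033). Its constant partner Rrm1 stood at 10.71, 10.99, 10.85, 11.30 and 11.69 against 9.82, 9.93 and 10.34, a difference of 1.07 ± 0.16 (adjusted p = 3e-04). The lesioned mice were above the intact ones for both. Gins2, part of the replicative helicase, differed by 1.65 ± 0.25 (adjusted p = 0.00031) and Pola1, the catalytic subunit of DNA polymerase alpha, by 0.87 ± 0.12 (adjusted p = 0.00017). Inhibitors of the cell cycle and p53 targets rose in 10 of 23 and fell in 0 (6 and 0 with the slide term, 12 and 0 at an unadjusted p under 0.05). Cdkn2c, an inhibitor of the kinases that open the cycle, differed by 1.97 ± 0.33 (adjusted p = 0.00056) and the death receptor Fas by 1.26 ± 0.21 (adjusted p = 0.00061).

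Matrix genes rose in part. Of 28 measured matrix proteases and inhibitors 17 rose and 0 fell (10 and 0 with the slide term, 19 and 0 at an unadjusted p under 0.05, 11 rose without WTC B), with a median of 0.48. Beside Timp1, Adamts1, which cleaves proteoglycans, stood at 10.38, 10.82, 10.37, 10.94 and 11.40 against 8.73, 9.15 and 9.51, a difference of 1.57 ± 0.24 (adjusted p = 0.00031). Mmp14, a membrane-bound metalloproteinase, differed by 1.02 ± 0.16 (adjusted p = 0.00041).

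Scar matrix and proteoglycan genes rose in 17 of 31 measured members and fell in 2 (9 and 1 with the slide term), with a median of 0.56; 11 rose without WT B or WT C, and 0 or 1 fell without WT A, B, C, E or WTC B, L or M. Lgals1, a galectin, stood at 14.14, 14.92, 14.41, 15.02 and 15.01 against 10.97, 11.41 and 11.80, a difference of 3.16 ± 0.37 (8.91-fold, adjusted p = 4e-05). Spp1, osteopontin, stood at 11.19, 11.35, 11.38, 12.64 and 12.22 against 6.91, 7.58 and 8.96, a difference of 3.45 ± 0.58 (10.9-fold, adjusted p = 0.00063). Thbs1, thrombospondin 1, differed by 2.41 ± 0.46 (adjusted p = 0.0014) and was highest in lesioned mice L and M. The 2 of 31 that fell, against 12.2% of all features, were Bcan, brevican, at -0.56 and Sparcl1, hevin, at -0.61.

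Collagens rose in 9 of 20 measured members and fell in 0 (6 and 0 with the slide term, 12 and 0 at an unadjusted p under 0.05), with a median of 0.39. Col5a3 stood at 9.08, 9.14, 9.75, 9.26 and 10.13 against 7.37, 7.65 and 7.92, a difference of 1.82 ± 0.26 (adjusted p = 0.00022). Col3a1, a fibrillar collagen, stood at 8.02, 8.31, 9.34, 9.82 and 10.02 against 6.62, 7.03 and 7.35, a difference of 1.95 ± 0.37 (adjusted p = 0.0014), and Col1a1, another, differed by 1.61 ± 0.37 (adjusted p = 0.0047). For Col3a1 and Col1a1 the 3 lesioned mice of slide 2 (K, L and M) were higher than A and B of slide 1.

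Among 31 measured genes of transforming growth factor beta signalling 7 rose and 0 fell (5 and 0 with the slide term, 9 and 3 at an unadjusted p under 0.05), and 2 fell without WT A or WTC A and 1 without WTC B or WTC L. Tgfb1, the ligand, stood at 8.14, 8.46, 8.57, 8.86 and 8.81 against 6.99, 7.12 and 7.45, a difference of 1.25 ± 0.24 (adjusted p = 0.0013), and its receptor Tgfbr2 differed by 1.06 ± 0.21 (adjusted p = 0.002). Of 29 other growth factor genes 8 rose and 2 fell (6 and 1 with the slide term); 1 fell without WT A, WT C, WT E or WTC M and 0 without WT B or WTC B. Cntf, a cytokine of astrocytes that keeps neurons alive, stood at 10.33, 10.21, 9.43, 10.14 and 10.45 against 7.82, 8.22 and 8.47, a difference of 1.93 ± 0.20 (adjusted p = 2.3e-05). Gdf15, a stress-induced hormone, differed by 1.57 ± 0.31 (adjusted p = 0.0015).

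Vascular genes did not move as a group. Of 26 measured endothelial genes of the blood-brain barrier 4 rose and 3 fell (1 and 1 with the slide term), shares close to the 14.3% and 12.2% of all features, with a median of 0.01 that was -0.06 after quantile normalization and -0.01 with no normalization between arrays. The count of 4 was 1 without WT B, WT C, WTC B or WTC M, 2 without WT D, WT E, WT F or WTC L and 7 without WTC A. Cldn5, the main tight junction protein of brain endothelium, stood at 12.19, 13.27, 13.17, 13.08 and 13.89 in lesioned and 11.81, 12.15 and 12.54 in intact mice. WTC A lay within the intact range, the difference was 0.84 ± 0.29 (adjusted p = 0.038), and the call was lost without any of WT B to WT F, WTC B, WTC L or WTC M, with adjusted p-values up to 0.094. It was also lost with the slide term (adjusted p = 0.10), on slide 1 alone, with no normalization between arrays, no filter on dim probes or no dye term, and with the channel labels of arrays I, J and K. Tfrc, the transferrin receptor of these cells, stood at 9.88, 9.50, 9.08, 9.48 and 8.71 against 10.11, 10.38 and 10.50, a difference of -0.90 ± 0.19 (adjusted p = 0.0026). Of 19 measured pericyte and smooth muscle genes 3 rose and 0 fell, against 14.3% and 12.2% of all features (2 and 0 with the slide term, 5 and 1 at an unadjusted p under 0.05). Of these genes 6 rose without WTC A and 1 fell without WTC L. Tagln, an actin-binding protein of contractile cells, stood at 12.43, 14.64, 13.59, 13.99 and 14.68 against 10.20, 10.62 and 11.46, a difference of 2.89 ± 0.51 (adjusted p = 0.00077), and Myl9, a myosin light chain, differed by 1.12 ± 0.23 (adjusted p = 0.002).

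Haemoglobin transcripts fell. Of 9 measured erythrocyte genes 6 fell and 0 rose (6 and 0 with the slide term, 7 and 0 at an unadjusted p under 0.05), with a median of -1.16. Hba-a1, an alpha-globin, stood at 13.16, 14.28, 13.55, 13.40 and 13.48 in lesioned and 14.40, 14.88 and 15.20 in intact mice, a difference of -1.19 ± 0.23 (adjusted p = 0.0015). Hbb-bs, a beta-globin, stood at 8.62, 9.33, 8.90, 8.52 and 8.51 against 9.62, 10.22 and 10.62, a difference of -1.32 ± 0.24 (adjusted p = 0.0011), and Hbb-bt, its near copy, differed by -1.26 ± 0.29 (adjusted p = 0.0044). WTC B was the highest lesioned mouse in each and still below every intact mouse. Probes of near-identical globin genes may bind the transcripts of one another. The labels do not say whether animals were perfused.

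Hmox1, the oxygenase that breaks haem down, stood at 12.51, 13.55, 13.01, 14.48 and 14.44 against 8.67, 8.96 and 10.17, a difference of 4.02 ± 0.64 (16.2-fold, adjusted p = 0.00042), and lesioned mice L and M were the highest. Of 21 measured genes of iron and haem 8 rose and 2 fell (7 and 2 with the slide term). Slc11a1, the metal transporter of phagosomes, differed by 1.92 ± 0.36 (adjusted p = 0.0013) and Trf, transferrin, by 1.34 ± 0.26 (adjusted p = 0.0016). Metallothioneins and acute phase genes rose in 9 of 12 measured members and fell in 0 (8 and 0 with the slide term, 10 and 0 at an unadjusted p under 0.05), with a median of 1.11. Saa3, a serum amyloid made in tissue, stood at 9.38, 9.45, 9.37, 9.91 and 8.95 in lesioned mice and was well above background in 1 of 6 intact mice, a difference of 3.00 ± 0.46 (adjusted p = 0.00031). Mt2, a metal-binding metallothionein, stood at 16.97, 17.68, 16.46, 17.45 and 16.97 against 15.25, 15.85 and 16.25, a difference of 1.35 ± 0.18 (adjusted p = 0.00016).

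Stress responses were mixed. Of 31 measured genes of glutathione and the factor NRF2, 12 rose and 2 fell (9 and 1 with the slide term). Nfe2l2, which encodes NRF2, differed by 1.27 ± 0.22 (adjusted p = 0.00069) and the peroxidase Prdx6 by 1.05 ± 0.18 (adjusted p = 0.00065), while Mgst3 differed by -0.79 ± 0.12 (adjusted p = 0.00026), opposite to its relative Mgst1. Of 22 heat shock genes 5 rose and 2 fell (5 and 1 with the slide term), with a median of -0.06 that was 0.01 with the slide term. The small heat shock proteins Hspb6 and Hspb8 differed by 1.75 ± 0.20 (adjusted p = 4e-05) and 1.18 ± 0.15 (adjusted p = 8.4e-05). Of 28 genes of the unfolded protein response 12 rose and 4 fell (8 and 3 with the slide term), led by the transcription factors Atf3, at 1.54 ± 0.25 (adjusted p = 0.00045), and Atf5, at 0.93 ± 0.16 (adjusted p = 0.00061). Of 27 apoptosis genes 12 rose and 2 fell (10 and 1 with the slide term; 1 fell without WT A, B, D, E or F or WTC B, K or M). Casp4, an inflammatory caspase, differed by 1.61 ± 0.30 (adjusted p = 0.0011) and Casp8, which starts death receptor signalling, by 1.58 ± 0.29 (adjusted p = 0.0012).

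Immediate early genes, which neurons switch on within minutes of activity, gave 5 rises and 1 fall among 30 measured (4 and 1 with the slide term), against 14.3% and 12.2% of all features, and 2 fell without WT A. Their median was 0.04, and -0.01 after quantile normalization. Fos stood at 8.41, 8.58, 8.25, 9.16 and 8.91 in lesioned and 7.72, 8.40 and 8.97 in intact mice. The groups overlapped, and its difference was 0.35 ± 0.29 (adjusted p = 0.36). Jun, a partner of Fos that also rises in injured cells, stood at 13.66, 13.64, 14.04, 13.52 and 14.35 against 12.34, 12.53 and 13.38, a difference of 0.98 ± 0.24 (adjusted p = 0.0067). Atf3 stood at 8.52, 8.54, 8.07, 9.07 and 9.08 against 6.87, 7.02 and 7.20, with no overlap.

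Transcription factors of injury and glial fate rose in 17 of 37 measured members and fell in 3 (12 and 2 with the slide term), with a median of 0.38. Cebpd, an acute phase regulator, stood at 14.26, 13.78, 12.93, 14.41 and 14.38 against 10.60, 11.49 and 11.87, a difference of 2.56 ± 0.44 (adjusted p = 0.00068). Stat3, the mediator of gliosis downstream of Osmr, stood at 12.30, 13.11, 13.19, 13.20 and 13.88 against 11.37, 11.65 and 11.76, a difference of 1.37 ± 0.23 (adjusted p = 0.00054). Lesioned and intact mice were apart for both. Of 20 measured genes known to rise in injured peripheral nerve cells 7 rose and 1 fell (6 and 1 with the slide term; 2 fell without WTC K); beside Tubb6, Atf3, Stat3 and Jun, Gadd45g differed by 0.64 ± 0.12 (adjusted p = 0.001).

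Genes of lipid export and storage rose, and those of cholesterol synthesis did not. Of 25 measured genes of efflux and storage 16 rose and 0 fell (13 and 0 with the slide term, 18 and 1 at an unadjusted p under 0.05), with a median of 0.77. Fabp7, a fatty acid carrier of radial glia and astrocytes, stood at 12.88, 13.54, 13.38, 13.97 and 14.09 against 10.66, 10.97 and 12.43, a difference of 2.31 ± 0.34 (adjusted p = 0.00026). Tspo, the mitochondrial protein imaged as a sign of glial activation, stood at 10.43, 11.60, 11.45, 11.75 and 11.91 against 8.71, 9.05 and 9.77, a difference of 2.20 ± 0.35 (adjusted p = 0.00046). Of 27 genes of cholesterol synthesis 1 rose and 5 fell (1 and 1 with the slide term); 3 fell without WT B, WT C, WT E, WTC L or WTC M, and 2 rose without WTC A. Cyp46a1, by which neurons export cholesterol, differed by -0.60 ± 0.13 (adjusted p = 0.0031).

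Eicosanoid genes rose in 9 of 16 and fell in 1 (9 and 0 with the slide term). When 1 mouse was left out, a fall was still called only without WT B or WTC B. Alox5ap and Alox5, which start leukotriene synthesis, differed by 2.07 ± 0.34 (adjusted p = 0.00048) and 1.56 ± 0.23 (adjusted p = 0.00029), and Tbxas1, which makes thromboxane, by 2.08 ± 0.33 (adjusted p = 0.00045). Among 18 genes of nucleotide and arginine metabolism 8 rose and 0 fell (7 and 0 with the slide term, 8 and 1 at an unadjusted p under 0.05; 1 fell without WTC A or WTC K). Arg1, the arginase of wound macrophages, was well above background in all 5 lesioned mice and in 0 of 6 intact ones. Its fitted difference was 2.18 (adjusted p = 0.0075). By plain means, apart from the fit, it was 5.28-fold above intact levels raised to the lowest signal well above background. Sat1, which breaks polyamines down, differed by 1.21 ± 0.20 (adjusted p = 0.00058).

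Energy metabolism fell modestly, and its counts leaned on single mice. Of 39 measured respiratory chain genes 19 fell and 0 rose (6 and 0 with the slide term, 26 and 0 at an unadjusted p under 0.05), with a median of -0.32; 11 fell without WT A or WTC M and 12 without WT E or WTC L.  Cox5a, a subunit of cytochrome oxidase, stood at 15.67, 15.05, 14.81, 15.42 and 14.80 in lesioned and 15.58, 15.76 and 16.13 in intact mice, a difference of -0.58 ± 0.14 (adjusted p = 0.0074), and WTC A lay within the intact range. Atp5b, the catalytic subunit of ATP synthase, stood at 16.30, 16.01, 15.58, 15.91 and 15.39 against 16.36, 16.52 and 16.66, a difference of -0.59 ± 0.13 (adjusted p = 0.0038). Of 27 genes of the citric acid cycle 10 fell and 1 rose (2 and 2 with the slide term); the 10 were 4 without WTC M, 5 without WT A, WT F or WTC B and 6 without WT C, WT D, WT E or WTC L, and 2 rose without WTC K or WTC M. Got2, which links the cycle to aspartate, differed by -0.58 ± 0.13 (adjusted p = 0.0049).

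Glycolysis genes went both ways. Of 27, 5 rose and 10 fell (4 and 4 with the slide term), with a median of -0.21; 3 rose without WTC B and 6 fell without WT E or WTC M. Hk2, the hexokinase induced in proliferating and activated cells, stood at 8.88, 9.35, 8.98, 9.68 and 10.43 against 7.51, 7.78 and 7.95, a difference of 1.56 ± 0.26 (adjusted p = 0.00059), and Hk3, the hexokinase of myeloid cells, differed by 1.63 ± 0.33 (adjusted p = 0.0023). Tpi1, triosephosphate isomerase, stood at 15.46, 15.24, 14.90, 15.42 and 15.03 against 15.58, 15.79 and 15.85, a difference of -0.50 ± 0.09 (adjusted p = 0.00067).

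Of 29 measured synaptic vesicle genes 9 fell and 0 rose (5 and 0 with the slide term, 11 and 0 at an unadjusted p under 0.05; 5 fell without WTC B), with a median of -0.37. Cplx1, a regulator of fast transmitter release, stood at 14.77, 14.01, 13.85, 14.54 and 14.15 in lesioned and 15.16, 15.39 and 16.12 in intact mice. All 5 lesioned mice were below all 6 intact ones, and the difference was -1.14 ± 0.19 (2.21-fold lower, adjusted p = 0.00063).

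Rab3a, a vesicle GTPase, differed by -0.67 ± 0.15 (adjusted p = 0.0039) and the vesicle fusion protein Vamp2 by -0.56 ± 0.10 (adjusted p = 0.0011). Snap25, its partner in fusion, stood at 15.93, 15.60, 15.86, 15.70 and 16.13 against 15.64, 15.85 and 15.94. The groups overlapped, and its difference was -0.02 ± 0.12 (adjusted p = 0.92). Rbfox3, the neuronal nuclear protein NeuN, stood at 15.04, 14.90, 14.47, 14.94 and 14.82 against 14.62, 15.17 and 15.28, a difference of -0.17 ± 0.16 (adjusted p = 0.42).

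Receptors and channels showed the same order of size. Of 33 measured glutamate and GABA receptor genes 9 fell and 0 rose (5 and 0 with the slide term, 12 and 0 at an unadjusted p under 0.05), with a median of -0.28. Gabrd, the extrasynaptic delta subunit of the GABA-A receptor, stood at 12.29, 12.71, 12.63, 13.41 and 13.96 against 13.99, 14.23 and 14.49, a difference of -1.24 ± 0.25 (2.36-fold lower, adjusted p = 0.0018), and lesioned mice L and M were nearest to the intact ones. Its call was lost without arrays A and B. Grm4, a glutamate receptor of presynaptic endings, differed by -0.67 ± 0.17 (adjusted p = 0.0083).

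Of 37 voltage-gated channel genes 10 fell and 0 rose (4 and 0 with the slide term, 19 and 0 at an unadjusted p under 0.05), with a median of -0.40. Scn2b, a sodium channel subunit, differed by -0.62 ± 0.14 (adjusted p = 0.0052), though its call was lost with no normalization between arrays. Kcna2, a potassium channel of axons, differed by -0.82 ± 0.20 (adjusted p = 0.0074), and its call was lost without arrays A and B. Neuronal cytoskeleton and axon genes fell in 12 of 27 and rose in 0 (8 and 0 with the slide term, 14 and 0 at an unadjusted p under 0.05), with a median of -0.30. Eno2, the neuronal enolase, stood at 15.51, 15.50, 15.31, 15.35 and 15.07 against 15.87, 16.04 and 16.08, a difference of -0.57 ± 0.12 (adjusted p = 0.0024), and Stmn3, a regulator of microtubules, differed by -0.62 ± 0.14 (adjusted p = 0.004).

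Of 23 interneuron and neuropeptide genes 3 fell, against 12.2% of all features, and 0 rose (1 and 0 with the slide term, 4 and 0 at an unadjusted p under 0.05; 1 fell without WTC B, WTC L or WTC M). Gad1, which makes GABA, stood at 13.06, 12.61, 12.62, 12.98 and 12.53 against 13.43, 13.64 and 14.01, a difference of -0.87 ± 0.23 (adjusted p = 0.011), and its call was lost without arrays A and B. Pvalb, the calcium buffer of fast-spiking interneurons, stood at 12.85, 12.57, 12.54, 13.61 and 14.39 against 12.71, 13.74 and 14.26. The groups overlapped, and its difference was -0.48 ± 0.37 (adjusted p = 0.34). Of 30 layer genes of excitatory neurons 1 rose and 3 fell, against 14.3% and 12.2% of all features (0 and 1 with the slide term). Of these genes 0 rose without any of WT A, B, D, E or F or WTC B, K or L, and 5 fell without WT C and 6 without WTC L. Deptor, a gene of deep layers, stood at 8.31, 9.18, 9.22, 9.51 and 8.89 against 9.82, 9.87 and 10.16, a difference of -0.91 ± 0.18 (adjusted p = 0.0015).

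Of single genes, Nexn had the largest decrease among those with no overlap between groups. Nexn, an actin-binding protein, stood at 8.26, 9.55, 8.18, 9.39 and 10.36 in lesioned and 10.59, 10.78 and 11.20 in intact mice. Lesioned mice A and K were lowest and M was close to the intact range; the difference was -1.66 ± 0.45 (3.16-fold lower, adjusted p = 0.012). Pcp4, a calmodulin regulator of deep-layer and striatal neurons, stood at 14.04, 14.63, 14.91, 15.08 and 15.47 against 15.96, 16.15 and 17.08, a difference of -1.53 ± 0.38 (2.88-fold lower, adjusted p = 0.0079). Pdp1, the phosphatase that turns pyruvate dehydrogenase on, stood at 12.29, 13.05, 12.78, 13.25 and 13.39 against 13.59, 14.19 and 15.39, a difference of -1.46 ± 0.37 (adjusted p = 0.0084). The calls of Nexn, Pcp4, Pdp1 and Hs3st5 were lost without arrays A and B, the only arrays that pair the groups directly.

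Cpne9, a calcium-dependent membrane binder, stood at 10.63, 10.73, 10.57, 10.65 and 10.83 against 11.10, 12.06 and 12.99, a difference of -1.41 ± 0.27 (adjusted p = 0.0013). The 5 lesioned mice agreed within 0.3, while the intact mice spread over nearly 2 log2 units. Opn3, an opsin of the brain, stood at 6.67, 7.48, 8.05, 7.45 and 7.11 against 8.36, 8.66 and 9.40, a difference of -1.42 ± 0.30 (adjusted p = 0.0026), and Cntn4, an adhesion molecule of axons, at 7.69, 8.44, 8.13, 8.52 and 8.25 against 9.15, 9.60 and 10.10, a difference of -1.31 ± 0.27 (adjusted p = 0.0024). Ankrd34c and the heparan sulphate enzyme Hs3st5 differed by -1.39 ± 0.29 (adjusted p = 0.0027) and -1.34 ± 0.30 (adjusted p = 0.0043). Rasgef1b, a Ras activator, differed by -1.32 ± 0.36 (adjusted p = 0.014), with WTC A more than 2 log2 units below the other lesioned mice, and its call was lost when the 11 wild-type channels were fitted alone. Tac2, a tachykinin precursor, differed by -1.42 ± 0.50 (adjusted p = 0.042), and the call was lost without WT A, WT D, WT F, WTC A, WTC B, WTC L or WTC M, with adjusted p-values up to 0.083. It was also lost with the slide term (adjusted p = 0.12), without arrays A and B, with no normalization between arrays, no filter on dim probes and with the channel labels of arrays I, J and K.

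Choroid plexus and striatal genes varied widely between mice of the same group. The 18 measured choroid plexus genes, made by the tissue that secretes cerebrospinal fluid, all had positive differences with a median of 1.64, but 0 were called (8 and 0 at an unadjusted p under 0.05, 0 with the slide term). Their mean level was 8.35, 11.80, 10.67, 10.26 and 10.59 in lesioned mice A, B, K, L and M, and 8.10, 8.21, 8.20, 11.59, 7.66 and 8.87 in WT A to WT F. WT D was thus as high as the lesioned mice and WTC A as low as the intact ones. Without WT D 8 genes passed, without WTC A 9 and without WTC L 1. Ttr, transthyretin, which the choroid plexus secretes, stood at 11.50, 18.53, 16.80, 15.38 and 16.35 against 10.23, 13.43 and 18.17, a difference of 2.33 ± 1.49 (adjusted p = 0.24).

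Genes of cilia of the ependyma, the lining of the ventricles, rose in 11 of 18 and fell in 0 (6 and 0 with the slide term, 15 and 0 at an unadjusted p under 0.05), with a median of 1.05. The count was 5 without WT B or WTC B, 6 without WT E and 7 without WT A or WTC K, and 1 without arrays A and B. Foxj1, the master regulator of motile cilia, stood at 10.77, 10.93, 11.09, 10.50 and 11.11 against 8.95, 9.17 and 10.20, a difference of 1.51 ± 0.29 (adjusted p = 0.0013). WT D was the highest intact mouse, as for the choroid plexus. The part that ventricular lining in the dissected piece had in these values was not tested.

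Striatal genes all had negative differences, 18 of 18 with a median of -0.87 (-0.53 without WTC A). Of the 18, 3 were called, against 12.2% of all features called lower (3 with the slide term). The count was 0 without WT B, and 1 without WT C, WT D, WT E, WTC A, WTC B or WTC K. The list's mean level was 10.12 in WT A and 9.17 in WTC A, the mice that shared an array, and 11.16 to 12.68 in the other intact mice. In lesioned mice B, K, L and M it was 11.62, 10.06, 11.52 and 12.24. Drd2, a dopamine receptor of striatal output cells that was well above background in 4 of 5 lesioned mice, stood at 6.22, 7.52, 6.42, 7.17 and 7.10 against 6.75, 8.21 and 8.59, a difference of -0.95 ± 0.33 (adjusted p = 0.038), and its call was lost without any of WT B to WT E, WTC A, WTC B, WTC K or WTC M, with adjusted p-values up to 0.13. The call of Drd2 was also lost with the slide term (adjusted p = 0.063), on slide 1 alone, with the 11 wild-type channels alone, without arrays A and B, with no filter on dim probes or no dye term, and with the channel labels of arrays I, J and K. Pcp4, Scn4b and other neuronal genes are shared with striatum, and the part that striatal tissue had in their differences was not tested. Of 17 hippocampal genes 1 rose and 0 fell, against 14.3% and 12.2% of all features (1 and 0 with the slide term, 1 and 1 at an unadjusted p under 0.05). Their median of -0.14 was 0.09 with the slide term, 0.16 without arrays I, J and K, -0.56 without arrays A and B and -0.45 without WTC A. On slide 1 alone 3 rose and 1 fell, with a median of 0.73.

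Of 24 myelin genes 4 rose and 0 fell, against 14.3% and 12.2% of all features (4 and 0 with the slide term, 6 and 0 at an unadjusted p under 0.05), with a median of 0.21. Gsn, gelsolin, an actin-severing protein of oligodendrocytes and other cells, stood at 13.63, 13.89, 13.48, 13.90 and 14.21 against 12.13, 12.46 and 12.77, a difference of 1.35 ± 0.26 (adjusted p = 0.0013). Of 21 genes of oligodendrocyte precursors 8 rose and 0 fell (3 and 0 with the slide term, 12 and 1 at an unadjusted p under 0.05); 3 rose without WT B, 4 without WTC B or WTC M and 5 without WT C, WT D or WT E, and 1 fell without WT A, WTC K or WTC L. Gpr17, a receptor of precursors about to mature, stood at 13.22, 13.81, 13.92, 13.83 and 13.10 against 11.90, 12.14 and 12.63, a difference of 1.38 ± 0.27 (adjusted p = 0.0015).

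Lists of muscle and meninges checked for neighbouring tissue. Of 14 skeletal muscle genes 2 rose and 1 fell, against 14.3% and 12.2% of all features (2 and 0 with the slide term). Of these genes 1 rose without WT B, C or E or WTC A, B or M and 2 fell without WT A or WTC A. The list's mean level was 7.18 to 7.44 in intact and 6.97 to 7.33 in lesioned mice. Of 19 meningeal and perivascular fibroblast genes 4 rose and 0 fell (3 and 0 with the slide term, 5 and 2 at an unadjusted p under 0.05); 8 rose and 1 fell without WTC A. The 4 were the collagens Col1a1, Col1a2 and Col3a1 and Islr. The call of Islr was lost without WT A, WT B, WT E, WT F, WTC B, WTC K or WTC L, with adjusted p-values up to 0.17, with the slide term (adjusted p = 0.084), on slide 1 alone, with no normalization between arrays, without arrays A and B and without arrays I, J and K, and that of Col1a2 on slide 1 alone. The defining meningeal marker Slc6a13, a transporter, gave -0.41 ± 0.31 (adjusted p = 0.33).

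**Figure D4:**
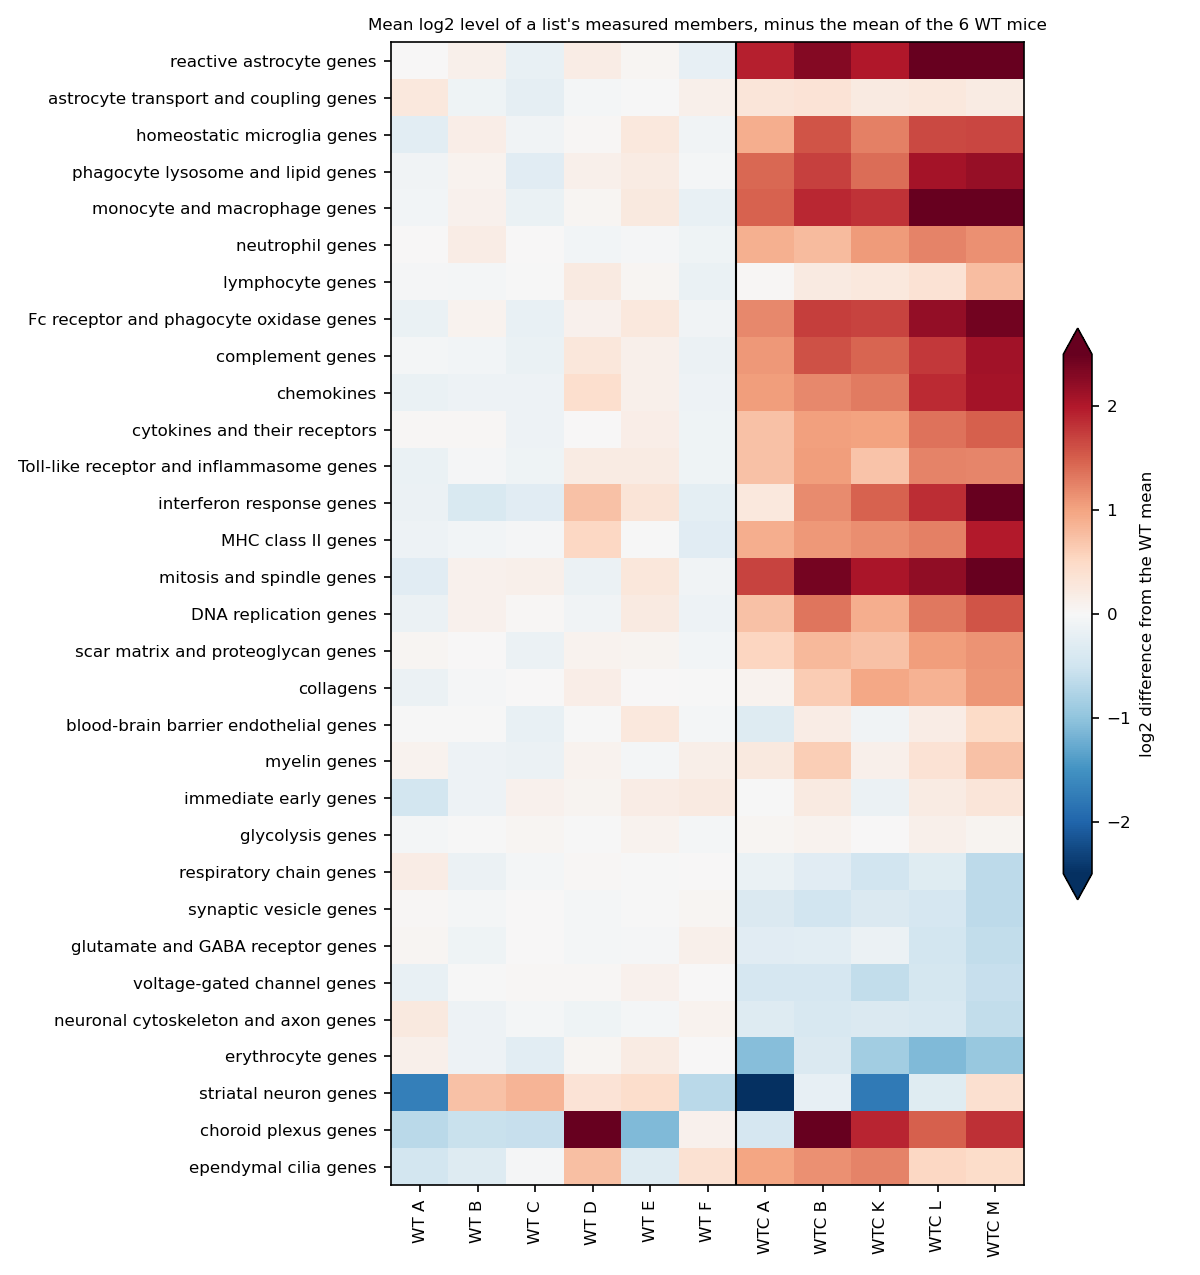
Mean log2 level of the measured members of 31 gene lists (rows) in each of 6 WT and 5 WTC mice (columns), as the difference from the mean of the 6 WT mice; the colour scale ends at -2.5 and 2.5. The lesioned mice are high in the rows of glial, immune and division genes, with WTC A palest, while choroid plexus genes are high in WT D and low in WTC A and striatal genes low in WT A and WTC A.

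The lesioned mice differed in how far they lay from the intact mice. On the first principal component of all 22 mice, which held 50.1% of the variance, the intact mice lay between -44.2 and -26.4 and lesioned mice A, B, L, K and M at 3.0, 32.4, 40.6, 65.5 and 105.9. Over the features called higher, the median distance from the intact mean was 0.41 in A, 0.65 in B, 0.62 in K, 0.62 in L and 0.89 in M, and over those called lower -0.24, -0.41, -0.62, -0.42 and -0.82. Of the 15 gene lists with a median difference of at least 1, WTC A had the lowest mean level among lesioned mice in 12 and WTC M the highest in 12. Gfap went against that order, with WTC A highest. The 15 lists include choroid plexus genes, lowest in WTC A, and ependymal cilia genes, lowest in WTC M. Some of the lists share members, such as Lgals3, and so are not separate counts. The called features were picked with these same mice. Lesioned mice A and B were on slide 1 and K, L and M on slide 2. WTC M was also the only lesioned mouse with low Y-linked genes. Slide and sex thus could not be told apart from the size of the response.

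Arrays A and B paired both groups directly. Their log2 ratios correlated across features with r = 0.387 (Pearson, 25997 features, which are not independent replicates, between 2 arrays that share no mouse). A channel fit without arrays A and B called 3024 features higher and 3592 lower. In that fit every intact wild-type mouse was on slide 1 and every lesioned one on slide 2. Lesion and slide therefore could not be told apart among them. Of the 3024, 71% had a positive ratio on both arrays, against 29.5% of all features, and of the 3592, 46.9% a negative one on both, against 27.2%. The median ratio of the 3024 was 0.23 on array A and 0.72 on array B, and that of the 3592 was -0.01 and -0.32.

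The authors' deposited table gives their own log2 differences for WTC against WT, made from the same arrays and therefore no independent measurement. There, 5508 of 59305 spots were higher and 9037 lower at a readable adjusted p under 0.05, and 766 cells of its p column held numbers above 1 and could not be read. Across 25997 features its differences correlated with those of the channel fit at r = 0.965 and with those of the ratio fit at r = 0.866, and all 6893 features called in the channel fit had the same sign in it. The authors' deposited table gives 5.63 for Timp1, 2.98 for Gfap, 3.73 for Vim, 1.24 for Mgst1 and 1.05 for Lgi4. Its adjusted p could not be read for any of these genes.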

How the data were processed

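Cortex RNA of 22 mice was measured on 11 Agilent 2-colour arrays of 62976 spots. Per the file headers, the deposited scanner files were written by Feature Extraction 10.7.3.1. They hold median spot and background intensity per channel, which the authors had not normalized, and the scanner software's dye-normalized log10 ratio of Cy5 to Cy3. The authors' deposited table gives a fold change, taken as log2 because its size matches (its base is not stated), and an adjusted p column treated as a score because 766 cells exceed 1. The submitters' processing notes name limma; the authors' filters and normalization are not stated in the material used.

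Spots were background-corrected (normexp, offset 50), loess-normalized within arrays and, for channel levels, Aquantile-normalized (limma 3.58.1, R 4.3.3). Probes well above background in at least 5 channels were kept, 1 probe per gene, giving 25997 features; 26688 probes (48.1%) had 1 gene symbol. The number of arrays limits the precision. Log2 ratios were fitted with lmFit and channel levels with lmscFit (intraspot correlation 0.318), both with a dye term, eBayes and Benjamini-Hochberg adjustment; the scripts were tested on simulated data. Titles gave the groups, since channel labels of arrays I, J and K contradict them. Genes were named if called in the ratio fit, if among the 12 largest non-overlapping differences per direction with 1 sign on arrays A and B, if among the 4 smallest p-values of a list, or if on a fixed list (Cd68 was not measured); others, defining markers aside, were chosen after their values were seen. The members and lists were chosen with earlier results of these data known. Sex-linked genes were left out, and 3 other genes that the rule names are not reported here. The alternatives tried are in the closing section.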

Additional observations from a re-analysis of the deposited data

Results flagged for a closer look

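Of 442 groups of values looked at (162 genes and 59 list means, each in the intact and in the lesioned mice), 18 held a mouse far from the others of its group, and chance gives about 1 in 20 such groups. The mouse was WT A in 6 of them, WT D in 5 and WTC A in 3.

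WT D was highest among the intact mice for C3 at 9.46, Ccl2 at 7.89 and H2-Eb1 at 10.11, and for the mean of MHC class II genes at 8.79 and of choroid plexus genes at 11.59. WT A was highest for Cplx1 at 16.12, Fabp7 at 12.43 and the mean of TCA cycle genes at 13.63, and lowest for Rbfox3 at 14.62, the mean of excitatory cortical layer genes at 9.78 and that of interneuron and neuropeptide genes at 10.60. WT B was lowest for Gadd45g at 12.54 and WT F for Tfrc at 10.11.

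Among lesioned mice, WTC A was lowest for Hs3st5 at 6.85, Rasgef1b at 9.33 and the mean of nerve injury regeneration genes at 10.51. WTC M was highest for C3 at 13.43 and Mmp14 at 8.52. All values are log2 levels.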

How the results depend on the processing

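The ratio fit depended on nearly every choice. It called 0 features higher with plain background subtraction, median centring or the channel labels of arrays I, J and K, 1 with the scanner's log ratio, no filter on dim probes, the mean over a gene's probes or a trended prior, 49 higher and 1 lower among probes well above background in all channels, 1342 and 399 without arrays I, J and K, 1420 and 708 on slide 1 alone, and 5908 and 4043 with array weights. Leaving out 1 array gave 0 to 1235 higher and 0 to 359 lower. The channel fit called 1793 higher and 812 lower with no normalization between arrays, 2400 and 1036 with a slide term, and 1653 lower with the channel labels of arrays I, J and K. Leaving out 1 mouse gave 2431 to 4393 higher and 1947 to 4439 lower. The cause was not tested in any case. Without arrays A and B, chosen after seeing the data, it called 3024 and 3592. Calls were mostly lower there and with quantile normalization (3173 and 4553), and nearly even without WTC A (4393 and 4439). No called gene value changed sign, but in the channel fit the medians of the endothelial, pericyte, heat shock, immediate early and hippocampal lists did under some alternatives. Of gene values in the channel fit under alternatives, 5625 kept their call, 222 lost it and 33 gained one; in the ratio fit 67 kept it and 89 lost it. Of called features, 90 were dim in every intact mouse and 26 in every lesioned mouse. The ratio fit compares the mice of each array. By replicate number no paired analysis was possible because the numbers do not tie mice of different groups.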
